A study of Mus musculus with 4 samples.

Results

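The 6 sites described here are ZFP57 binding sites that the deposited site table annotates as germline differentially methylated regions (DMRs) at places other than the known imprinted loci. They were taken from a table of 158 binding sites by that annotation, leaving out 2 annotated sites in the zinc-finger genes Zfp444 and Zfp777. The 6 lie in the genes Cdh15, Fkbp6, Nbas and Habp4, in 120 bases that end at base 143890960 of chromosome 5 (the chr5 site) and in 120 bases that end at base 47106460 of chromosome 13 (the chr13 site), on build NCBIM37 (mm9). The study used ChIP-seq against ZFP57 in mouse embryonic stem (ES) cells from reciprocal crosses, so that reads over strain differences can be given to the BL6 or the Cast allele. In BC cells (strain C57BL/6J x Cast/EiJ) the mother was BL6, and in CB cells (Cast/EiJ x C57BL/6J) the mother was Cast. Each cross has 1 ChIP library and 1 input library, all 4 from hybrid ES cells grown with LIF and the inhibitors PD0325901 and CHIR99021. The ChIP libraries were made with the antibody ab45341 from formaldehyde-fixed chromatin, and each cross is a single male cell line (BC8 and CB9). With 1 library per cross there is no replicate check, and the tests of parental and strain origin below compare 2 libraries, not 2 conditions, while the tests within a cross use the reads of 1 library. The table holds values of the ChIP libraries only and neither methylation nor expression values, so neither the DMR annotation nor the cell type could be checked in it.

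A germline DMR is a stretch of DNA whose methylation differs between egg and sperm. At imprinted loci that difference outlasts the demethylation of the early embryo, and one parental copy of a nearby gene stays silent. ZFP57 is a zinc-finger protein with a KRAB domain that binds a methylated hexamer, TGCCGC, and recruits the corepressor KAP1 and enzymes that keep DNA methylated. At an imprinted DMR it therefore sits on the methylated parental copy, which for most such DMRs is the maternal one.

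The sequences of the 6 sites are shown first, to show the motif in each and, at the pair with both alleles sequenced, the strain differences. Each is the plus strand of NCBIM37, with every TGCCGCN motif on either strand in capitals. For the Fkbp6 site only the first 30 bases and the stretch before the annotated transcription start are given.
Cdh15, chr8:125388980-125389120: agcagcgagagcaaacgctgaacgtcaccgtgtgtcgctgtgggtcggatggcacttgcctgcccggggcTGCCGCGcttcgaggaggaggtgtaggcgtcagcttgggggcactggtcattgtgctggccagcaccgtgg
Fkbp6, chr5:135825859-135825888: catctTGCCGCAcaactgtctccaaaggcc
Fkbp6, chr5:135825896-135825980: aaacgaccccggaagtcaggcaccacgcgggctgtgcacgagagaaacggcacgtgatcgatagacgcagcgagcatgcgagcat
The chr5 site, 120 bases to chr5 position 143890960: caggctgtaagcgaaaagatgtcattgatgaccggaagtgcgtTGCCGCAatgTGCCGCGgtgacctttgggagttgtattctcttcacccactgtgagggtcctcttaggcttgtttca
Habp4, chr13:64271184-64271320: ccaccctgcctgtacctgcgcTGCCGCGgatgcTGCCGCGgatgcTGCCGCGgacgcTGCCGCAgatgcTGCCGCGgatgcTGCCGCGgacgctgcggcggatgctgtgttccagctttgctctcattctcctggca
For the remaining pair, Nbas and the chr13 site, the study sequenced both alleles, and the Cast allele follows the BL6 one. Capitals in the Cast allele mark the bases aligned to a BL6 motif.
Nbas BL6, chr12:13443884-13444000: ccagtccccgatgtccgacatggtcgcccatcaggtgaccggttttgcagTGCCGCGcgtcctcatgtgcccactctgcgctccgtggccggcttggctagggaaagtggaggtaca
Nbas Cast: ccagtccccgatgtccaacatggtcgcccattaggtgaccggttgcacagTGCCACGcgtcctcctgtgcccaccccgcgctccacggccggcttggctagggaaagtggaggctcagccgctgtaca
The chr13 site BL6, 120 bases to chr13 position 47106460: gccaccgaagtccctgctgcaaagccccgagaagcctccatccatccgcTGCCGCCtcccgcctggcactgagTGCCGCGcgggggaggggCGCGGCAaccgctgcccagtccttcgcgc
The chr13 site Cast: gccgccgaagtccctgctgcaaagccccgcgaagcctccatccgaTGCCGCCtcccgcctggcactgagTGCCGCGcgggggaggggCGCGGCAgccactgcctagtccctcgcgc

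The deposited table counts TGCCGCR motifs (TGCCGCA or TGCCGCG) and TGCCGCY motifs (TGCCGCC or TGCCGCT). It gives 1 motif to Cdh15, 1 to Fkbp6, 2 to the chr5 site, 6 to Habp4, and on the BL6 allele 1 to Nbas and 4 to the chr13 site. A recount in the reference genome on both strands gave the same number inside 5 of the 6 sites and 3 inside the chr13 site. The remaining motif of the chr13 site lies outside it, at chr13:47106295-47106301, within the longer stretch of 448 BL6 bases that the study sequenced. Of the 14 motifs inside the 6 sites, 13 are on the plus strand and 1, in the chr13 site, is on the minus strand. The seventh base was G in 10, A in 3 and C in 1. The median was 1.5 motifs a site over the 6 and 1 over all 158, of which 127 (80.4%) held at least 1. For comparison, 0.721% of all genome windows of 121 bases, the median length of the 6 sites, held a TGCCGCN motif on either strand. By their methods the authors set aside peaks lacking a motif, so the share among listed sites is partly set by that selection.

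Habp4 had the most motifs of all 158 sites in the recount inside sites, and the most of the 154 sites with a deposited count. No other site had 6 in either of these counts. Its 6 motifs follow each other at steps of exactly 12 bases, all on the plus strand, so that the site is a short tandem repeat, and the deposited table marks a SINE there. The 2 motifs of the chr5 site start 10 bases apart. In the chr13 site the 3 motifs start at positions 50, 74 and 92 of 120. In Fkbp6 the single motif inside the site lies at the edge, starting at base 6 of 122. Another Fkbp6 motif lies outside the site, at chr5:135826071-135826077 on the minus strand. In Cdh15 and Nbas the single motif lies 3 and 5 bp from the centre. In all, 10 of the 14 motifs had their middle within 20 bp of the centre of the site.

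**Figure D1:**
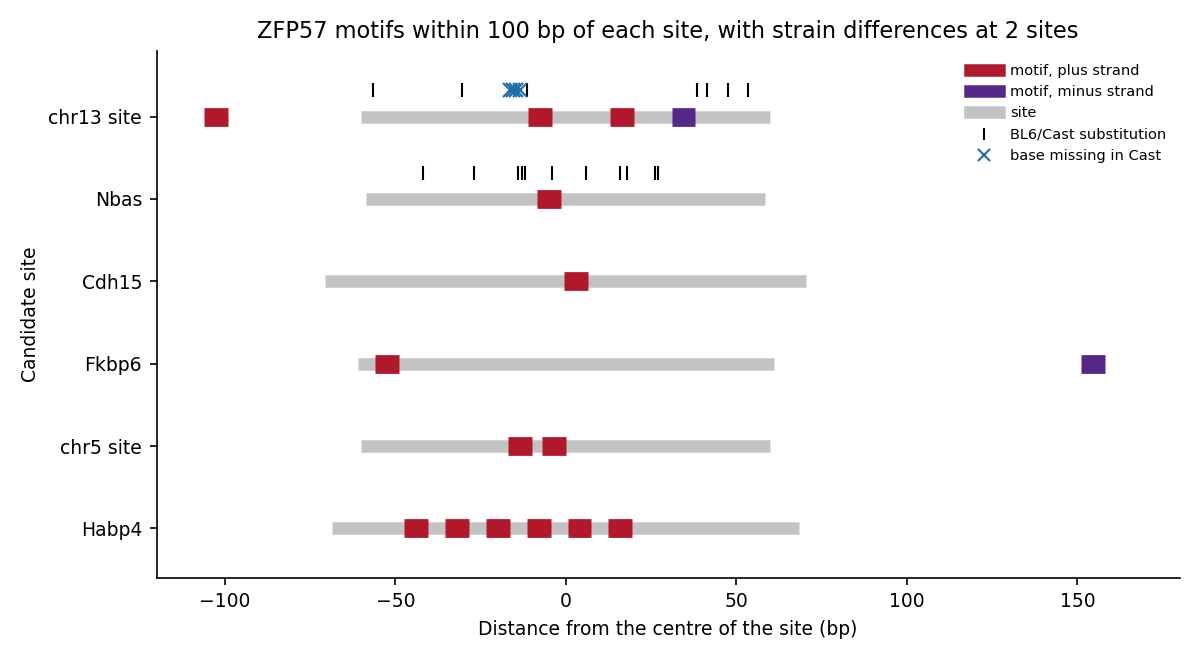
Positions of the ZFP57 motif in and around the 6 candidate sites, as distance from the centre of each site in bp. Grey bars are the sites, coloured blocks the motifs by strand within 100 bp of a site, black ticks the base substitutions between BL6 and Cast and crosses the bases missing in Cast, for Nbas and the chr13 site. The 6 motifs of Habp4 are evenly spaced, and the substitution in the Nbas motif is the only strain difference inside a motif at these 2 sites.

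The 6 sites also differ in base composition. CpG dinucleotides numbered 16 in Habp4, 13 in Fkbp6, 13 in the chr13 site, 12 in Cdh15, 10 in Nbas and 6 in the chr5 site, against a median of 8 over all 158 sites. Per 100 bases, 94.9% of the listed sites had fewer CpGs than Habp4, and 34.2% had fewer than the chr5 site. The share of G and C was 73.3% at the chr13 site, higher than at 97.5% of the listed sites. It was 51.7% at the chr5 site, and only 1.27% of the listed sites were lower.

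Between the alleles, the Nbas site differs by 11 substitutions and by 11 bases inserted in Cast. One substitution, G55A, falls in the motif, with the BL6 base first and positions counted from 1 at the first plus-strand base of the site. It changes the fifth base of the motif, the G of its CpG, so that the Cast allele has 0 TGCCGCN motifs where BL6 has 1. The closest other substitutions are G47A, T46C and T45G, which lie 4 to 6 bp before the motif, and A65C, 8 bp after it. The chr13 site is another case. It differs by 7 substitutions and by 4 bases missing in Cast, at positions 44 to 47, and all 3 of its motifs are intact on both alleles. There C49A and A99G are the bases directly 5' of a motif on that motif's strand, and G102A lies 4 bp from the nearest motif. The site has 13 CpGs on the BL6 allele and 14 on the Cast allele, and the Nbas site 10 on each.

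Around the sites, the annotation (GENCODE M1, on the same build as the table) places the Cdh15 site in the interior of its gene. Cdh15 encodes M-cadherin, a calcium-dependent adhesion protein of muscle. All 141 bases of the site lie in exon 11 (chr8:125388890-125389129), 17184 bp after the gene's start, and a second gene model, Gm20388, spans the same place. The nearest genes outside are Gm16378, 22806 bp to the left, and Ankrd11, 18100 bp to the right. Fkbp6 encodes an immunophilin needed for meiosis in the male germ line, and its site is the only one that the table calls a promoter. The site's centre lies 24.5 bp before the start of the gene, which runs on the minus strand, and 37 of its 122 bases are in exon 1, 34 of them in the 5' untranslated region. Trim50 begins 3184 bp to the right, and on the left the next gene beyond Fkbp6 itself is Fzd9, 98758 bp away.

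Nbas encodes a subunit of a complex that tethers vesicles at the endoplasmic reticulum. Its site is intronic, 168009 bp after the start of a gene of 314684 bp, with Gm6736 17464 bp to the right and Ddx1 187864 bp to the left. Habp4 encodes a protein that binds RNA and hyaluronan. Its site is intronic too, 8078 bp after the gene's start, between Zfp367 at 16673 bp and Cdc14b at 22532 bp. The chr5 site overlaps no annotated gene and the table calls it intergenic distal. It lies 16167 bp from Rnf216, which encodes a ubiquitin ligase, and 7965 bp from Olfr718-ps1. The chr13 site lies in the pseudogene 2010001K21Rik (chr13:47106042-47106564), with 116 of its 120 bases in exons, and it is the only one of the 158 sites that the table gives a pseudogene. Its centre is 358.5 bp after the pseudogene's start, so by the study's promoter window, from 1.5 kb before to 0.5 kb after a start, it counts as a promoter together with Fkbp6. Nhlrc1, which encodes a ubiquitin ligase, lies 1466 bp to the right, and SNORA18 30123 bp to the left.

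By the deposited features the 6 sites thus comprise 1 promoter, 1 exon, 2 introns, 1 pseudogene and 1 intergenic site. Over all 158 sites there were 22 promoters, 46 exons, 46 introns and 43 intergenic sites. A repeat was marked at 1 of the 6, Habp4, and at 45 of the 158 (28.5%). The table's column for ChIP-qPCR carried a mark at Fkbp6, Nbas and the chr5 site, and at 39 of the 158. The mark is garbled in the file and was read only as present or absent. The study's methods describe marking peaks whose ChIP-qPCR enrichment passed a threshold over control regions. Whether the mark at these sites means that could not be checked, so no qPCR result is read from it.

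Binding strength is given as a read density. The table heads its columns as combined reads, and they are taken here as the density that the study's methods describe, normalised for site length and aligned reads. In BC the density was 267 at Fkbp6, 247 at Cdh15, 216 at the chr13 site, 190 at Habp4, 107 at Nbas and 92 at the chr5 site. In CB it was 118 at Habp4, 111 at Cdh15, 94 at the chr5 site, 56 at Fkbp6, 42 at the chr13 site and 25 at Nbas. The order of the 6 thus changed between the crosses, and with 1 library each the spread behind that order is unknown. The highest in BC, Fkbp6, had place 4 of the 158 sites there and place 38 in CB. Habp4 had place 5 in CB and place 29 in BC, and the chr5 site place 11 in CB and place 90 in BC. Cdh15 was high in both crosses, at places 12 and 10. The median of the 6 was 203 in BC and 75 in CB, against 107 and 38.5 over all 158 sites and 164.5 and 50 over the 34 sites at imprinted loci. The authors' percentile rank among all peaks was at least 99.08 at all 6 sites in both crosses, but sites entered the list largely by a high rank, so nothing is read from it.

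Density was higher in BC than in CB at 5 of the 6 sites and at 152 of the 158, so a ratio of BC to CB has to be read against the median ratio of all sites, 2.79. The ratio was 5.14 at the chr13 site, 4.77 at Fkbp6, 4.28 at Nbas, 2.23 at Cdh15, 1.61 at Habp4 and 0.979 at the chr5 site. Once each density was divided by the median of its cross, the chr13 site, Fkbp6 and Nbas were higher in BC, by 1.85, 1.72 and 1.54 times. On that scale Cdh15, Habp4 and the chr5 site had ratios of 0.801, 0.579 and 0.352 and were lower in BC, so for Cdh15 and Habp4 the direction depends on the scale. By this ratio the chr5 site had place 155 of 158.

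**Figure D2:**
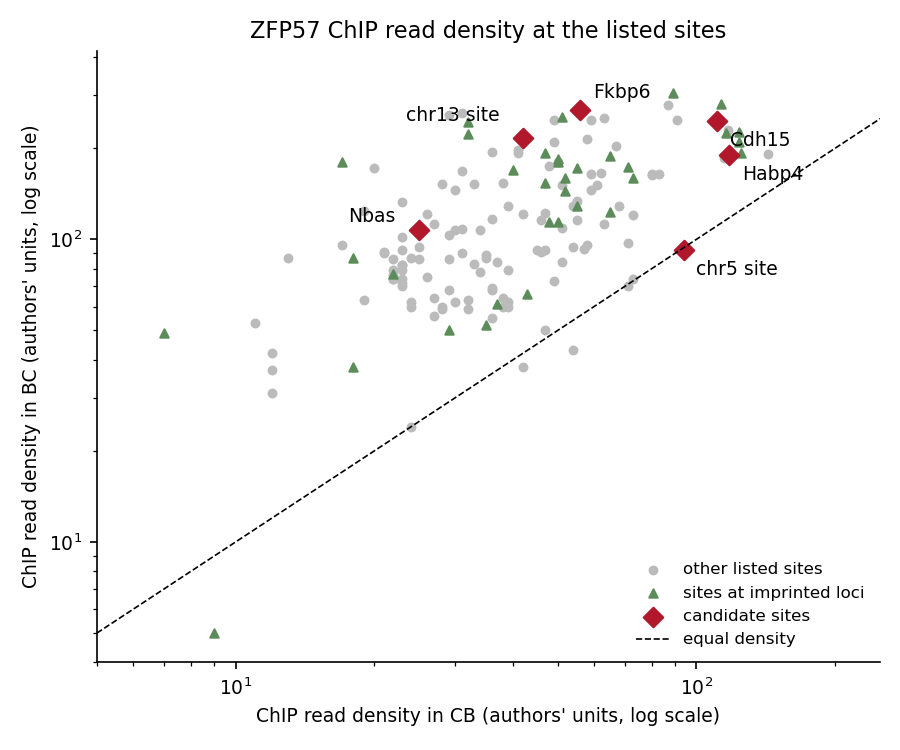
ChIP read density of the 158 listed sites in BC (vertical) and CB (horizontal), in the authors' units on log axes, 1 point per site. The dashed line marks equal density. Of the 6 candidate sites, the chr5 site lies on that line at 92 and 94, and the chr13 site, Fkbp6 and Nbas lie farthest above it.

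Allele-specific reads were listed for 5 of the 6 sites. Habp4 had 0 SNPs and 0 such reads, so nothing can be said of its alleles. Among all listed sites, 116 had allele-specific reads, 10541 in BC and 5904 in CB, and the 5 candidate sites held 1367 and 627 of them. The deposited number of SNPs was 9 at the chr13 site, 8 at Nbas, 3 at Cdh15, 3 at Fkbp6 and 2 at the chr5 site. It differs from the substitutions found inside the sequenced alleles, 7 at the chr13 site and 11 at Nbas. The authors gave each read to the genome it matched better, and reads matching both equally were set apart. The intervals that follow, by Wilson's method at 95%, reflect counting error alone.

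At the chr13 site BC gave 295 BL6 and 48 Cast reads, a BL6 share of 86.0% (81.9 to 89.3). CB gave 87 BL6 and 2 Cast reads, a share of 97.8% (92.2 to 99.4). BL6 reads prevailed whether the BL6 chromosome came from the mother or from the father. A two-sided Fisher exact test on maternal and paternal reads by cross, which asks whether reads follow the strain, gave p = 3.58e-53 (adjusted by Benjamini-Hochberg over the 116 sites, 2.07e-51), place 2 of the 116 from the smallest p.

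At Nbas BC gave 75 BL6 and 12 Cast reads, a BL6 share of 86.2% (77.4 to 91.9). CB gave 28 and 7, a share of 80% (64.1 to 90.0). The same exact test gave p = 4.87e-12 (adjusted 3.53e-11), place 16 of the 116. With the counts divided by its 8 deposited SNPs, a harsh cut in read number chosen after seeing the data, the BL6 share at Nbas was 90% in BC and 100% in CB. The exact p was then 0.0140 and the call was lost for lack of reads, while the chr13 site kept its call. These 2 sites passed the study's limit of p under 0.0001 for the strain test, so 2 of the 5 candidate sites with reads were called higher on BL6, against 15.5% of all 116 sites. On Cast, 0 of the 5 were called higher, against 7.76% of the 116. The numbers are too small to set the 5 apart from the rest. Both called sites had BL6 reads in excess. The motif is lost on Cast at Nbas and intact on both alleles at the chr13 site, and its part in the excess was not tested.

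At the chr5 site the Cast allele had more reads in both crosses. BC gave 14 BL6 and 30 Cast reads, a BL6 share of 31.8% (20.0 to 46.6). CB gave 39 and 65, a share of 37.5% (28.8 to 47.1). The exact strain test gave p = 0.00105 and an adjusted p of 0.00419, which misses the limit of 0.0001 and passes an adjusted limit of 0.05. At Cdh15 the BL6 allele was slightly higher in both crosses. BC gave 227 BL6 and 203 Cast reads, a share of 52.8% (48.1 to 57.5), and CB gave 168 and 126, a share of 57.1% (51.4 to 62.7). Its strain test gave an exact p of 0.010 and an adjusted p of 0.0284. Fkbp6 was close to even, with 219 BL6 and 244 Cast reads in BC, a share of 47.3% (42.8 to 51.9). CB gave 57 and 48, a share of 54.3% (44.8 to 63.5), and the strain test gave an exact p of 0.829.

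**Figure D3:**
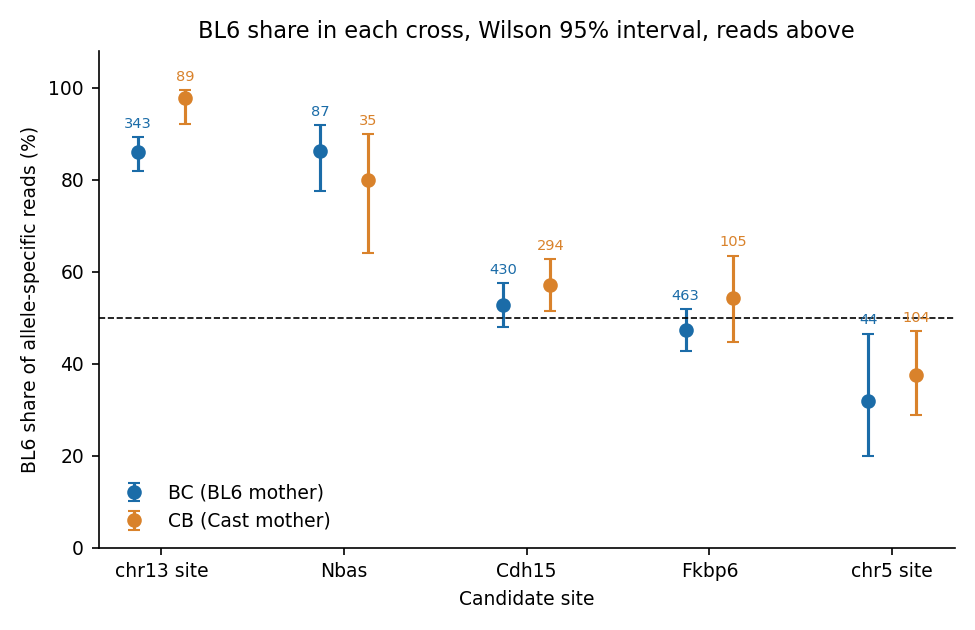
BL6 share of allele-specific reads in percent at the 5 candidate sites with reads, in BC (blue) and CB (orange), with Wilson 95% intervals and the number of reads above each. The dashed line marks 50%. The chr13 site and Nbas lie above it in both crosses, from 80% to 97.8%, and the chr5 site below it, at 31.8% and 37.5%.

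Taken cross by cross, the BL6 share differed from 50% by a two-sided exact binomial test at an adjusted p under 0.05 at 3 of the 5 sites in BC, against 55.2% of the 116 sites, and at 4 of the 5 in CB, against 50% of the 116. The 3 in BC were the chr13 site (adjusted p 9.74e-43), Nbas (1.08e-11) and the chr5 site (0.0423). In CB Cdh15 joined them (0.0339), beside the chr13 site (5.01e-22), Nbas (0.00140) and the chr5 site (0.0292). Fkbp6 passed in neither cross. With halved counts the calls of the chr5 site in BC and CB (adjusted p 0.235 and 0.202) and of Cdh15 in CB (0.212) were lost. Counts divided by SNPs also ended the calls of Nbas in BC and CB (adjusted p 0.0509 and 0.475), and only the chr13 site then passed. Against the share of the other sites in place of 50%, the chr5 site lost its call in CB (adjusted p 0.0889). Cdh15 and Fkbp6 in BC then gained calls, with shares below that reference. The reference includes the sites at imprinted loci, whose BL6 share was 90.3% in BC and 12.6% in CB. Over all listed sites it was 62.6% and 47.4%. The imprinted sites thus raise the reference in BC and lower it in CB, so no strain effect is read from these changes. A reference without them was not tested. In BC the order of the shares was Nbas, the chr13 site, Cdh15, Fkbp6 and the chr5 site, and the only neighbours whose intervals did not overlap were the chr13 site and Cdh15. In CB it was the chr13 site, Nbas, Cdh15, Fkbp6 and the chr5 site, and the intervals of the chr13 site, Nbas and Cdh15 lay apart from each other.

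Multiplying density by these shares splits binding by allele, in deposited units that are not scaled to the median of each cross. At the chr13 site the BL6 part was 186 in BC and 41.1 in CB, and the Cast part 30.2 and 0.944. The 0.944 rests on 2 Cast reads of 89, so its size is poorly known. At Nbas the BL6 part was 92.2 and 20.0, and the Cast part 14.8 and 5.00. At the chr5 site the BL6 part was 29.3 and 35.3 and the Cast part 62.7 and 58.8. At Fkbp6 both parts were higher in BC, 126 against 30.4 for BL6 and 141 against 25.6 for Cast. Cdh15 had 130 against 63.4 for BL6 and 117 against 47.6 for Cast, ratios of 2.06 and 2.45 that are under the median ratio of all sites, 2.79.

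**Figure D4:**
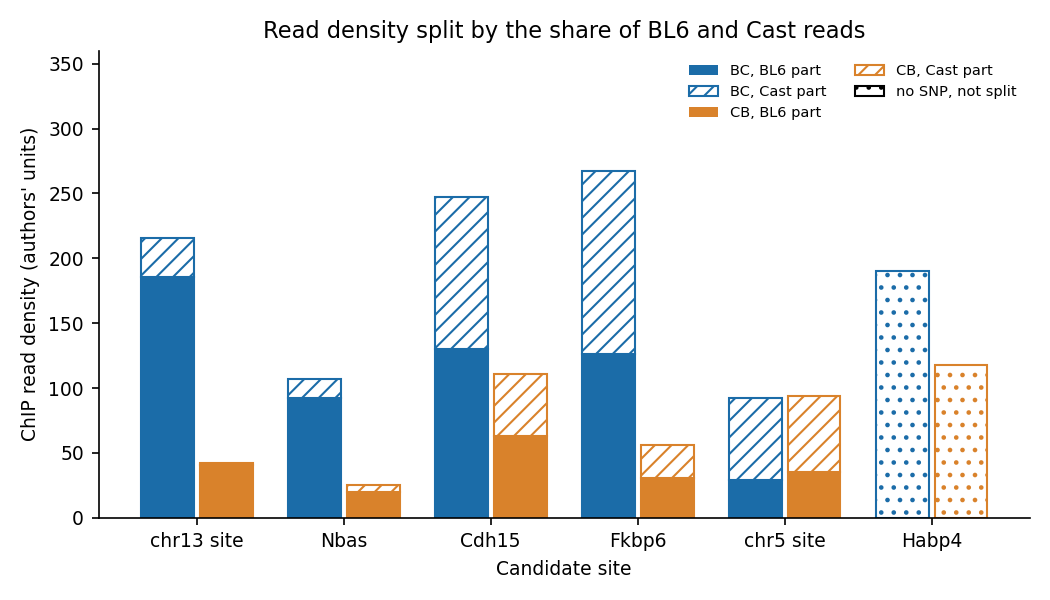
ChIP read density of the 6 candidate sites in BC (blue) and CB (orange), in the authors' units, with each bar split into its BL6 part (solid) and Cast part (hatched) by the share of allele-specific reads. Habp4 has no SNP and is not split. The Cast part of the chr13 site in CB, 0.944, rests on 2 Cast reads.

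Parent of origin was tested with a two-sided Fisher exact test on BL6 and Cast reads by cross. None of the 5 sites with reads passed p under 0.0001, against 22.4% of the 116 sites, which include those at imprinted loci. Over both crosses the maternal share of reads was 48.8% (45.1 to 52.4) at Cdh15 and 47.0% (42.9 to 51.1) at Fkbp6. At Nbas, the chr13 site and the chr5 site a share over both crosses mixes strain with read number, because the crosses have unequal reads at the site. With equal weight for the crosses it was 53.1% at Nbas, 44.1% at the chr13 site and 47.2% at the chr5 site, where the sum of reads gave 67.2%, 68.8% and 53.4%. The direction thus turned at the chr13 site and the chr5 site. The exact p for parental origin was 0.234 at Fkbp6, 0.255 at Cdh15, 0.415 at Nbas and 0.576 at the chr5 site. At the chr13 site it was 0.00120, and adjusted over the 116 sites 0.00499. There the BL6 share was 11.7 percentage points higher in CB, where the BL6 chromosome is paternal, and the p misses the limit of 0.0001. From the smallest p, it had place 4 among the 90 tested sites without an imprinted locus. The paper reports parental-origin calls outside imprinted clusters only on chromosome X, where it expects the maternal allele in these male lines. Such sites were not left out of the 90.

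How far these sites stand from imprinted DMRs was tested against the 31 listed sites at 17 maternally methylated imprinted loci, 25 of which had reads. Of those 25, 23 passed the parental test towards the mother, 0 towards the father and 0 the strain test. Among reference sites with at least 10 reads the maternal share had a median of 95.3% in BC, from 83.0% at Inpp5f_v2 to 100% at Snrpn. In CB the median was 95%, from 60.0% at Grb10 with 15 reads to 100%, for example at Peg3. Summed over the reference sites, 94.1% of reads in BC and 93.2% in CB were maternal. In two-sided Fisher exact tests against those sums, the maternal share was lower at an adjusted p under 0.05 at 5 of the 5 candidate sites in BC, against 86.7% of the 90 sites without an imprinted locus, and at 5 of the 5 in CB, against 88.9%. The candidate sites thus lay below the summed reads of the imprinted sites, as most other listed sites did, and the sum ignores the spread between single imprinted sites. These reads come from ES cells alone. The paper reports paternal expression of Fkbp6 in embryonic tissues but expression from both alleles in ES cells. It also cites an earlier report of Cdh15 as imprinted. Whether Fkbp6 and Cdh15 are imprinted in other tissues was not tested here.

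In BC the distance was small for the sites biased to BL6. The maternal share there was 86.2% at Nbas (adjusted p 0.0111) and 86.0% at the chr13 site (adjusted p 8.20e-07). Both lie inside the range of single imprinted sites only through an Inpp5f_v2 site at 83.0%, the next lowest being 89.6% at Mest. With counts divided by SNPs neither Nbas nor the chr13 site passed in BC (adjusted p 0.488 and 0.0713). In CB, with the strains exchanged, it was 20.0% at Nbas (adjusted p 1.67e-24) and 2.25% at the chr13 site (adjusted p 3.15e-83), outside that range. The other 3 lay between 31.8% and 52.8% in BC and between 42.9% and 62.5% in CB. The 62.5% is that of the chr5 site (interval 52.9 to 71.2). It lies inside the range of single imprinted sites in CB only through Grb10, at 60.0% on 15 reads. The next lowest imprinted site with at least 10 reads there, at Inpp5f_v2, had 81.8% on 11 reads.

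**Figure D5:**
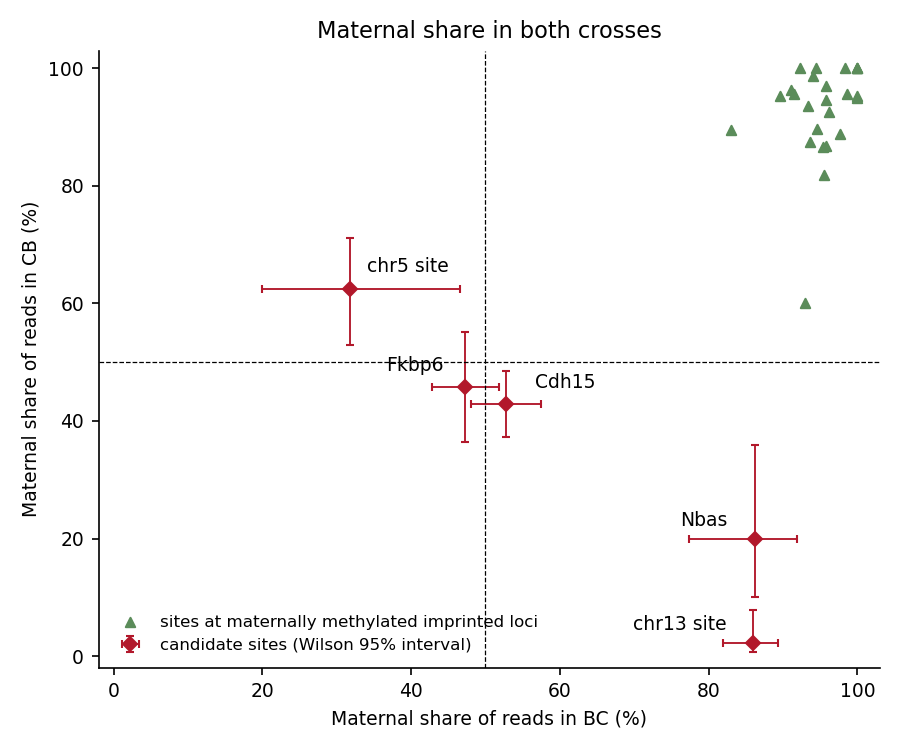
Maternal share of allele-specific reads in percent in BC (horizontal) and CB (vertical) at the 5 candidate sites with reads (diamonds, Wilson 95% intervals) and at sites of maternally methylated imprinted loci (triangles, 1 per site with reads in both crosses). Dashed lines mark 50%. Imprinted sites sit in the upper right corner, apart from Grb10 at 60.0% in CB, while Nbas and the chr13 site combine about 86% in BC with 20.0% and 2.25% in CB, and Cdh15, Fkbp6 and the chr5 site lie around the middle.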

How the data were processed

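The table of 158 sites is deposited for the whole series. Reads of both crosses were aligned by the authors with Bowtie to NCBIM37 and to a Cast version of it, and peaks were called against input. The deposited density is taken as a score, which by the methods was scaled by site length and by aligned reads. The deposited percentile ranks are percent values, and the deposited allele-specific reads are raw counts over SNPs. The authors' own p-values and calls, also in the table, were not used. Input libraries have no values in it.

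Computed here with Python 3.11.15 and SciPy 1.17.1 were Fisher and binomial exact tests over all sites with reads, Benjamini-Hochberg adjustment over them, Wilson intervals and motif recounts in NCBIM37. The tests were tried on simulated counts. All 6 candidate sites and, on each side, the nearest annotated genes are named, and other sites only as extremes of a range. The table writes Zfp44 for the site the selection rule calls Zfp444. Members and lists were chosen with earlier results of these data known. Alternatives varied thresholds, adjustment, read counts, the reference sites, density scale, motif window and promoter window.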

Additional observations from a re-analysis of the deposited data

Results flagged for a closer look

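The BL6 share at the chr13 site differed between the crosses, 86.0% in BC and 97.8% in CB. The Fisher exact test of that difference gave an adjusted p of 0.00499 over the 116 sites with reads, which is why it is listed here. It rests on 2 Cast reads in CB against 48 in BC, and on 1 library per cross, so cross, cell line and library cannot be told apart. The exact p, 0.00120 on the deposited counts, was 0.0328 with the counts halved and 0.566 with the counts divided by the 9 SNPs of the site.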

How the results depend on the processing

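Several results moved with the processing. For parental origin, 0 of the 5 sites were called at p under 0.0001, at p under 0.000001, with halved counts and with counts divided by SNPs. At p under 0.01 and at an adjusted p under 0.05 it was 1, the chr13 site. Summing the reads of both crosses and applying an exact binomial test also called 1, the same site, and there reversed it towards the mother (p = 4.54e-15). That sum is weighted to BC, which has more reads at this site and where BL6 is the mother. The same exact test turned the direction at the chr5 site (p = 0.460), and at Fkbp6 for strain (p = 0.529). Counts divided by SNPs turned the parental direction at Nbas (exact p = 1). None of these 3 was near a limit.

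For strain origin, 2 sites were called, 3 at p under 0.01, 4 at an adjusted p under 0.05, and 1 with counts divided by SNPs. This division was chosen after seeing the data. Nbas then had an exact p of 0.0140, since the division by its 8 SNPs leaves few reads. Over all sites the strain test called 27, 42 at an adjusted p under 0.05 and 17 with counts divided by SNPs.

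Of the 10 BL6 shares tested within a cross, 7 passed, 4 with halved counts, which lost the chr5 site in both crosses and Cdh15 in CB, and 2 with counts divided by SNPs. These 2 were both at the chr13 site. Against the share of the other sites in place of 50%, 8 passed. Cdh15 in BC turned to a share below the reference (52.8%, adjusted p 3.99e-05), Fkbp6 in BC gained a call (adjusted p 2.03e-11), and the chr5 site in CB lost its call (adjusted p 0.0889). That reference includes the imprinted sites, which raise it in BC and lower it in CB, so no strain effect is read from these changes. The mean of the crosses put Fkbp6 at 50.8% in place of 48.6%.

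All 10 maternal shares were below the summed reads of the imprinted sites with halved counts and with either smaller set of reference sites, and 8 with counts divided by SNPs, where Nbas and the chr13 site in BC no longer passed (adjusted p 0.488 and 0.0713).

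Density was higher in BC at 5 sites as deposited and at 3 on each other scale. Cdh15 turned to ratios of 0.801 and 0.676, and Habp4 to 0.579 and 0.489, under the medians of all and of imprinted sites. Motif totals ran from 14 to 16 around the deposited 15. Promoters numbered 1 by the table and 2 by either annotation window. Read number limits Nbas most among the sites called, with 35 reads in CB.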

Other observations

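The 2 candidate sites left out by the selection rule, those in Zfp444 and Zfp777, were not examined. Habp4 has no allele-specific value, though it had the most motifs of the 158 sites in the recount inside sites and of the 154 with a deposited count. The 5 sites with reads therefore do not cover it. The main limits are 1 library and 1 cell line per cross, no methylation values, and Cast sequence for 2 of the 6 sites only.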
